A study of Mus musculus with 26 samples.

Results

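Toll-like receptors and the NLRP3 inflammasome were followed through 10 genes: the receptors Tlr2, Tlr4, Tlr7, Tlr8 and Tlr13, the co-receptor Cd14, the adaptor Myd88, and the inflammasome genes Nlrp3, Pycard and Casp1. Members were found in the files by symbol, and each matched 1 row of both expression tables, which list 53465 genes for regenerating muscle and 55487 genes for cultured myoblasts. The muscle table holds tibialis anterior of C57BL/6 J mice, given in the methods as males of 6 weeks, in which fibers were destroyed by 25 µL of 10 µM cardiotoxin (CTX), a snake venom toxin that kills fibers. Muscle was taken on days 1, 3, 5 and 10 after injection and compared with day 0, with 2 libraries per day; whether day 0 was untouched or saline-injected muscle is not given in the sources used here. The cell table holds C2C12, a mouse myoblast line, as control cells and as cells in which a dead Cas9 fused to the KRAB repressor, driven by the hUbC promoter, was directed to the promoter of Mettl3, the enzyme that writes m6A on RNA. The repressed cells were a lentiviral line selected with puromycin, and both kinds of cells were sequenced in growth medium (GM) and on day 3 of differentiation in horse serum (DM3), again with 2 libraries per group. The construct carried by the control cells is not described in the sources used here, and the methods speak of independent biological samples in general but not of these libraries, so p-values measure the spread between these samples, which may be technical.

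Toll-like receptors are membrane proteins that recognise conserved molecules of microbes and of dying cells. Tlr2 and Tlr4 work at the cell surface, where Cd14 hands lipopolysaccharide to Tlr4, whereas Tlr7, Tlr8 and Tlr13 sit in endosomes and read RNA, and all 5 receptors can signal through the adaptor Myd88 to NF-κB. In the inflammasome, the sensor Nlrp3 gathers the adaptor ASC, encoded by Pycard, which activates caspase 1, the protease that matures interleukin 1β and interleukin 18 and cuts gasdermin D. In injured muscle, neutrophils and then monocytes and macrophages enter the damaged tissue and clear dead fibers, and these myeloid cells are the best known site of both systems.

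Because these genes moved together in muscle, the sequence before their start sites was read from RefSeq (GRCm38.p6), which held promoters of 7 of the 10 members, 250 bases before to 50 bases after each start. The 4 stretches below end just before the first exon base annotated at that start and read 5′ to 3′ on the strand of the gene, with motif matches in capitals: an NF-κB site for Tlr2, an interferon-response repeat (GAAANNGAAA) for Myd88, and PU boxes (GAGGAA, the core bound by the myeloid factor PU.1) for the downstream start of Nlrp3 and for Tlr13. Those of Nlrp3 and Myd88 lie in an intron of another transcript of the same gene that starts further upstream. They are Tlr2 at chr3:83841768-83841858 (minus strand), Myd88 at chr9:119340042-119340268 (minus strand), Nlrp3 at chr11:59542436-59542685 (plus strand) and Tlr13 at chrX:106143025-106143203 (plus strand).
Tlr2: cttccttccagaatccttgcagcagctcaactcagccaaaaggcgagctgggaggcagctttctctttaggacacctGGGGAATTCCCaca
Myd88: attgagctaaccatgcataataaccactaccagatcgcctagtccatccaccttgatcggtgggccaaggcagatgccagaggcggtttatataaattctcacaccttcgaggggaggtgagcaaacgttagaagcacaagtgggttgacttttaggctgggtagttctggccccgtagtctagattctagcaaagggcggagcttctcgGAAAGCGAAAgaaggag
Nlrp3: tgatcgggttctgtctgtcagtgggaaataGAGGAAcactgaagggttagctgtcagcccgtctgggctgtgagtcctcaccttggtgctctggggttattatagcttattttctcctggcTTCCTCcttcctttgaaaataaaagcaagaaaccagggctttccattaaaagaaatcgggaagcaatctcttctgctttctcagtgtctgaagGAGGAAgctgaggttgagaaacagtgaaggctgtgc
Tlr13: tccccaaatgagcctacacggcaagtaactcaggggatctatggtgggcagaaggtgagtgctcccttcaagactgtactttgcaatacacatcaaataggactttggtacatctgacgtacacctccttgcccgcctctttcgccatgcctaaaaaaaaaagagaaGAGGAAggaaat

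Searched on both strands of the whole promoter windows, the PU box was present in 5 of the 7 members (Pycard, Casp1, Nlrp3, Tlr13 and Tlr8), against 31.3% of the 27025 genes with a promoter entry. Counted from the RefSeq start as base 1, it lay at -42 to -37 in Pycard, -108 to -103 in Casp1, -83 to -78 in Tlr13 and -77 to -72 in Tlr8, and at 3 places in Nlrp3, at -220 to -215, -129 to -124 and -36 to -31. The NF-κB consensus was found in Tlr2 and at the upstream start of Nlrp3, a sequence that 5.14% of genes carry. In Tlr2 it matched at -173 to -164, at the overlapping bases -172 to -163, and at -8 to 2. The interferon-response repeat was found in Myd88 at -40 to -31, against 3.99% of genes, and matches of different motifs did not overlap. These matches describe letters in a window and not bound sites.

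In the annotation (GENCODE M21, GRCm38), Tlr2 spans bases 83836272 to 83841767 of chromosome 3, Tlr4 bases 66827584 to 66930284 of chromosome 4, Casp1 bases 5298517 to 5307265 and Myd88 bases 119335934 to 119341411 of chromosome 9, Pycard bases 127989708 to 127993867 of chromosome 7 and Nlrp3 bases 59541568 to 59566956 of chromosome 11. Tlr13, Tlr7 and Tlr8 are all on the X chromosome, the last pair 40599 bases apart. Myd88 overlaps Acaa1a on the opposite strand over 290 bases and Pycard overlaps Gm45205 over 485 bases. Strand use in counting is not given, so reads from these overlaps cannot be told apart.

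The libraries held an inferred 14174079 to 18823229 reads in muscle and 14226526 to 29558784 in C2C12, where the 2 control GM libraries correlated least (r = 0.960, against 0.972 to 0.988 for all other pairs of replicates). C2C12 libraries differed by replicate number. Those of replicate 1 held 25155001 to 29558784 reads, with mt-Co1 as the highest gene. Those of replicate 2 held 14226526 to 18893383 reads, with Gm23935 or CT010467.1 highest. The part of this in the spread between replicates was not tested. Mettl3, the targeted gene, was at 4.68 to 5.65 FPKM (fragments per kilobase of exon, scaled to library size) in control C2C12 and at 0.0805 to 0.331 FPKM in knockdown cells, a log2 difference of -4.56 on DM3 (adjusted p = 0.0187) and -4.10 in GM (adjusted p = 0.188). Xist, which is transcribed in female cells, was at 5.77 to 10.0 FPKM in 5 of the 10 muscle libraries (both of day 0, both of day 10 and replicate 2 of day 3), where Y-linked genes were at 0.108 FPKM or less. It was at 0.0170 to 0.152 FPKM in the other 5, where Y-linked genes were at 0.626 to 11.7 FPKM. Day 0 therefore differs from days 1 and 5 in Xist state as well as in injury, and these cannot be told apart in those comparisons, whereas day 3 has a library of each state. A term for Xist in the fit is thus estimated from the 2 day 3 libraries alone. Calls kept or lost with that term do not settle the part of Xist state.

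All 10 genes rose by day 3 after cardiotoxin. The endosomal RNA receptors had the largest ratios: mean FPKM on day 3 was 39.5 times that of day 0 for Tlr8, 35.8 times for Tlr13 and 27.2 times for Tlr7. Without day 0 replicate 1, in which Tlr8 was listed at 0, these ratios were 19.8 for Tlr8, 24.3 for Tlr13 and 23.3 for Tlr7, so the order among them rests on that library. Tlr2 was 10.5 times, Casp1 10.2 times and Pycard 9.36 times the day 0 mean, followed by Nlrp3 (6.08), Cd14 (3.98), Myd88 (3.43) and Tlr4 (2.31). Each of the 10 had both day 3 libraries above both day 0 libraries, a pattern shared by 38.9% of the 16753 genes tested in muscle. In limma on log2(FPKM + 0.1), with Benjamini-Hochberg adjustment over all tested genes and called at an adjusted p of 0.05 or less, 10 of 10 were higher against 24.5% of all genes. With the added demand of a log2 difference of 2 or more, 6 of 10 were called against 9.46% of genes. The median log2 difference of the members was 3.07 and that of all tested genes 0.01. In bulk muscle, a change in the number of cells of a type and a change in RNA per cell cannot be told apart.

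**Figure D1:**
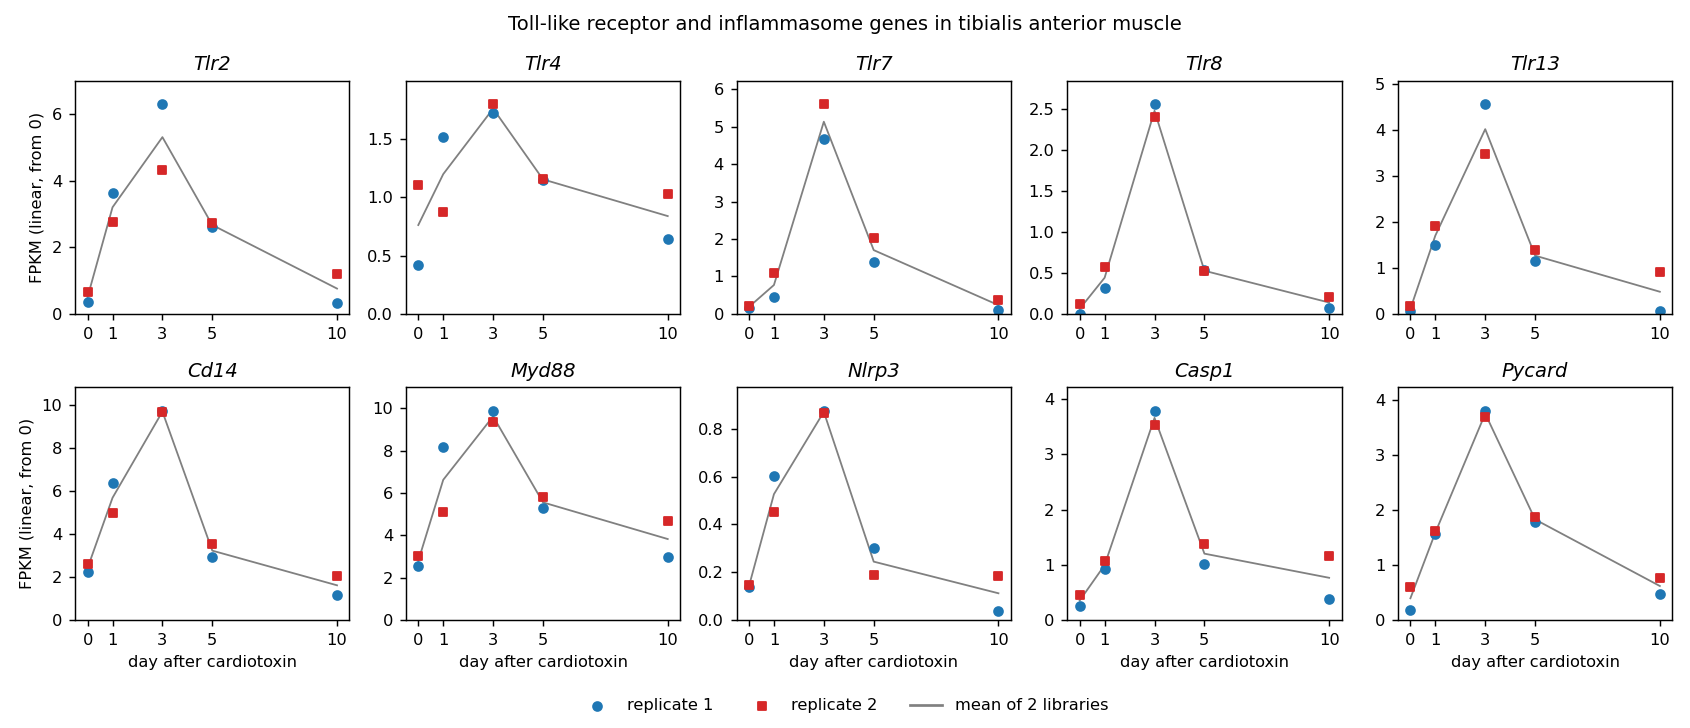
FPKM (linear axis from 0) of the 10 members in each muscle library by day after cardiotoxin, 1 panel per gene, with blue circles for replicate 1, red squares for replicate 2 and a line through the means of 2. All 10 genes are highest on day 3, and their day 10 libraries lie below both day 3 libraries.

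The RNA receptors were close to the limit of detection in uninjured muscle. Tlr7, which binds single-stranded RNA, was at 0.157 and 0.220 FPKM on day 0, 0.445 and 1.10 on day 1, 4.67 and 5.59 on day 3, 1.38 and 2.02 on day 5, then 0.10 and 0.369 on day 10. Tlr8, its X-linked neighbor, was at 0 and 0.125 FPKM on day 0, 0.312 and 0.573 on day 1, 2.56 and 2.40 on day 3, 0.531 and 0.523 on day 5, then 0.0683 and 0.210 on day 10. Tlr13, which reads bacterial ribosomal RNA, was at 0.0589 and 0.165 FPKM on day 0, 1.50 and 1.90 on day 1, 4.55 and 3.47 on day 3, 1.14 and 1.39 on day 5, then 0.0600 and 0.904 on day 10. For Tlr7, Tlr8 and Tlr13 the day 3 pair stood above all other libraries, with days 1 and 5 at intermediate levels. How many of all genes share this pattern was not counted. The log2 rise from day 0 to day 3 was 4.18 (SE 0.50, adjusted p = 6.48e-04) for Tlr7, 4.10 (SE 0.50, adjusted p = 7.01e-04) for Tlr8 and 4.31 (SE 0.74, adjusted p = 0.00270) for Tlr13. Tlr8 rested on few reads before injury, an inferred 0 and 6 reads on day 0 against 181 and 174 on day 3. With the 0.1 FPKM added before the logarithm, these log2 differences understate the change of so low a gene.

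Both surface receptors were present before injury, and their balance differed between days. Tlr2, the receptor for bacterial lipoproteins, was at 0.346 and 0.671 FPKM on day 0, 3.64 and 2.78 on day 1, 6.30 and 4.33 on day 3, 2.61 and 2.74 on day 5, then 0.325 and 1.20 on day 10. Tlr4, the lipopolysaccharide receptor, was at 0.419 and 1.11 FPKM on day 0, 1.52 and 0.877 on day 1, 1.72 and 1.80 on day 3, 1.15 and 1.16 on day 5, then 0.647 and 1.03 on day 10. Tlr2 rose by day 3 with a log2 difference of 3.18 (SE 0.51, adjusted p = 0.00200), and Tlr4 with 1.23 (SE 0.43, adjusted p = 0.0447). The call of Tlr4 was near the threshold and held in 8 of 19 alternative settings. Within a library, the ratio of Tlr4 to Tlr2 was 1.21 and 1.65 on day 0, 0.273 and 0.415 on day 3, then 1.99 and 0.859 on day 10.

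Cd14 and Myd88, which serve several receptors, were the members of highest level. Cd14 was at 2.25 and 2.62 FPKM on day 0, 6.40 and 4.99 on day 1, 9.73 and 9.65 on day 3, 2.93 and 3.55 on day 5, then 1.19 and 2.06 on day 10. Its day 10 libraries both lay below the day 0 pair, with a log2 difference of -0.59 that was not called (unadjusted p = 0.0498, adjusted p = 0.493). Myd88 was at 2.56 and 3.05 FPKM on day 0, 8.16 and 5.08 on day 1, 9.87 and 9.35 on day 3, 5.29 and 5.83 on day 5, then 2.98 and 4.68 on day 10. By day 3 Cd14 rose by 1.95 on the log2 scale (SE 0.26, adjusted p = 9.13e-04) and Myd88 by 1.75 (SE 0.27, adjusted p = 0.00182).

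The 3 inflammasome genes rose by day 3, with Nlrp3 at the lowest level of all members on that day. Nlrp3, the sensor, was at 0.138 and 0.148 FPKM on day 0, 0.602 and 0.450 on day 1, 0.874 and 0.865 on day 3, 0.303 and 0.187 on day 5, then 0.0403 and 0.186 on day 10. Pycard, the adaptor, was at 0.190 and 0.611 FPKM on day 0, 1.56 and 1.62 on day 1, 3.80 and 3.69 on day 3, 1.78 and 1.88 on day 5, then 0.473 and 0.774 on day 10. Casp1, the protease, was at 0.268 and 0.450 FPKM on day 0, 0.933 and 1.07 on day 1, 3.79 and 3.53 on day 3, 1.02 and 1.39 on day 5, then 0.382 and 1.16 on day 10. All 3 had day 3 pairs that differed little between libraries. The log2 rise from day 0 to day 3 was 3.08 (SE 0.40, adjusted p = 8.76e-04) for Pycard, 3.06 (SE 0.43, adjusted p = 0.00125) for Casp1 and 2.00 (SE 0.44, adjusted p = 0.00766) for Nlrp3. The Nlrp3 values stand for an inferred 7 and 8 reads on day 0 and 70 and 71 reads on day 3.

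By mean FPKM on day 3 the order was Cd14 at 9.69 ± 0.0560 (SD, n = 2), Myd88 at 9.61 ± 0.373, Tlr2 at 5.32 ± 1.40, Tlr7 at 5.13 ± 0.656, Tlr13 at 4.01 ± 0.763, Pycard at 3.75 ± 0.0745, Casp1 at 3.66 ± 0.182, Tlr8 at 2.48 ± 0.112, Tlr4 at 1.76 ± 0.0522 and Nlrp3 at 0.870 ± 0.00640. Cd14 and Myd88 overlapped in their libraries. Tlr2 overlapped Tlr7 and Tlr13, and Tlr13 overlapped Pycard and Casp1. Tlr8, Tlr4 and Nlrp3 lay below the rest without overlap.

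The members differed in how much of their day 3 level they had reached on day 1. Mean FPKM on day 1 was 68.9% of that on day 3 for Myd88, 68.1% for Tlr4, 60.5% for Nlrp3, 60.3% for Tlr2 and 58.7% for Cd14, whereas it was 17.9% for Tlr8, 15.1% for Tlr7 and 27.3% for Casp1. Pycard (42.5%) and Tlr13 (42.4%) lay between. Mean FPKM on day 0 was already 43.3% of that on day 3 for Tlr4, 29.2% for Myd88, 25.1% for Cd14 and 16.5% for Nlrp3. It was 2.53% (Tlr8) to 10.7% (Pycard) for the others, so the day 1 percentages include unlike starting levels and do not measure the rise alone. On day 1 the test called 4 of 10 members higher than day 0, against 3.53% of all genes: Tlr2 (log2 difference 2.48, adjusted p = 0.0386), Pycard (1.90, adjusted p = 0.0409), Cd14 (1.19, adjusted p = 0.0429) and Myd88 (1.18, adjusted p = 0.0485). All 4 were near the threshold, and none was called without the filter on low values, with a term for Xist or in a fit of the compared days alone. Tlr13 had the largest day 1 difference and missed the threshold (3.13, SE 0.74, adjusted p = 0.0509).

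From day 1 to day 3 the test called 3 of 10 members higher, against 14.5% of genes: Tlr7 (2.69, adjusted p = 0.00800), Tlr8 (2.29, adjusted p = 0.0136) and Casp1 (1.78, adjusted p = 0.0199). For the other 7 the log2 difference was 0.56 to 1.19 and was not called. Within a library the ratio of Tlr7 to Tlr2 was 0.122 and 0.396 on day 1 and 0.740 and 1.29 on day 3, without overlap. The differences from day 1 compare only libraries low in Xist with a day 3 pair of mixed state, and with a term for Xist 0 of the 3 were called. Within the same Xist state, day 3 replicate 1 was above both day 1 libraries for 10 of 10 members, against 38.1% of genes.

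Both day 5 libraries were below both day 3 libraries for 10 of 10 members and for 33.4% of genes. The decline passed the test for 2 of 10, against 5.46% of genes: Tlr8 fell by 2.04 on the log2 scale (adjusted p = 0.0379) and Cd14 by 1.56 (adjusted p = 0.0118). This count ranged from 0 to 5 when single libraries were left out and reached 9 when days 5 and 3 were fitted alone. Compared with day 0, 7 of 10 were higher on day 5, against 12.9% of genes, with log2 differences from 0.97 for Myd88 (adjusted p = 0.0381) to 2.73 for Tlr13 (adjusted p = 0.0343). Tlr4 (0.66, adjusted p = 0.284), Nlrp3 (0.49, adjusted p = 0.443) and Cd14 (0.40, adjusted p = 0.286) were not called. With the Xist term 0 of the 7 were called, and without the filter 4.

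By day 10 all members lay below their day 3 levels, with a wide spread between libraries, and the difference was called for all except Tlr4. Both day 10 libraries lay below both day 3 libraries for 10 of 10 members and for 37.1% of genes, and 9 of 10 were called lower against 18.8% of genes. Tlr7 fell by 4.09 on the log2 scale (adjusted p = 0.00112), Tlr8 by 3.50 (adjusted p = 0.00196), Tlr13 by 3.35 (adjusted p = 0.0106) and Tlr2 by 2.84 (adjusted p = 0.00472). Cd14 fell by 2.55 (adjusted p = 6.67e-04), Pycard by 2.44 (adjusted p = 0.00330), Nlrp3 by 2.28 (adjusted p = 0.00625), Casp1 by 2.27 (adjusted p = 0.00608) and Myd88 by 1.34 (adjusted p = 0.00768). Tlr4 differed by -1.02 and was not called (adjusted p = 0.0971). Against day 0, 0 of 10 were called by limma and 1 of 10 had an unadjusted p under 0.05, where 0.00597% of genes were called higher. None had both day 10 libraries above both of day 0, against 19.2% of genes. The intervals were wide, for example -0.76 to 2.69 around the log2 difference of 0.97 for Tlr13. Comparisons with day 0 share its libraries, and those with day 3 share the day 3 pair.

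Replicate 2 exceeded replicate 1 for 10 of 10 members both on day 0, with a median ratio of 1.58, and on day 10, with a median ratio of 1.94. Macrophage and monocyte markers went the same way, higher in replicate 2 for 11 of 12 on day 0 (median ratio 1.75) and 12 of 12 on day 10 (2.49). Fiber markers did not, with 3 of 7 higher in replicate 2 on day 0 (median ratio 0.986) and 2 of 7 on day 10 (0.847). The share of all genes higher in replicate 2 was not counted.

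For the days that share a state of Xist, day 3 replicate 2 was above both day 0 libraries for 10 of 10 members, against 44.2% of all genes, and above both day 10 libraries for 10 of 10, against 43.4%. Day 3 replicate 1 was above both day 5 libraries for 10 of 10, against 41.9%. With a term for Xist in the fit, 9 of 10 members were called higher on day 3 than on day 0, and 8 of 10 lower on day 10 than on day 3. As the term comes from the day 3 pair alone, both of these counts rest on day 3 replicate 2. In the 2 day 3 libraries, which differ in Xist, the X-linked Tlr7 was at 4.67 and 5.59 FPKM, Tlr8 at 2.56 and 2.40 and Tlr13 at 4.55 and 3.47. With 1 library of each state, an effect of Xist state on these genes was not tested.

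**Figure D2:**
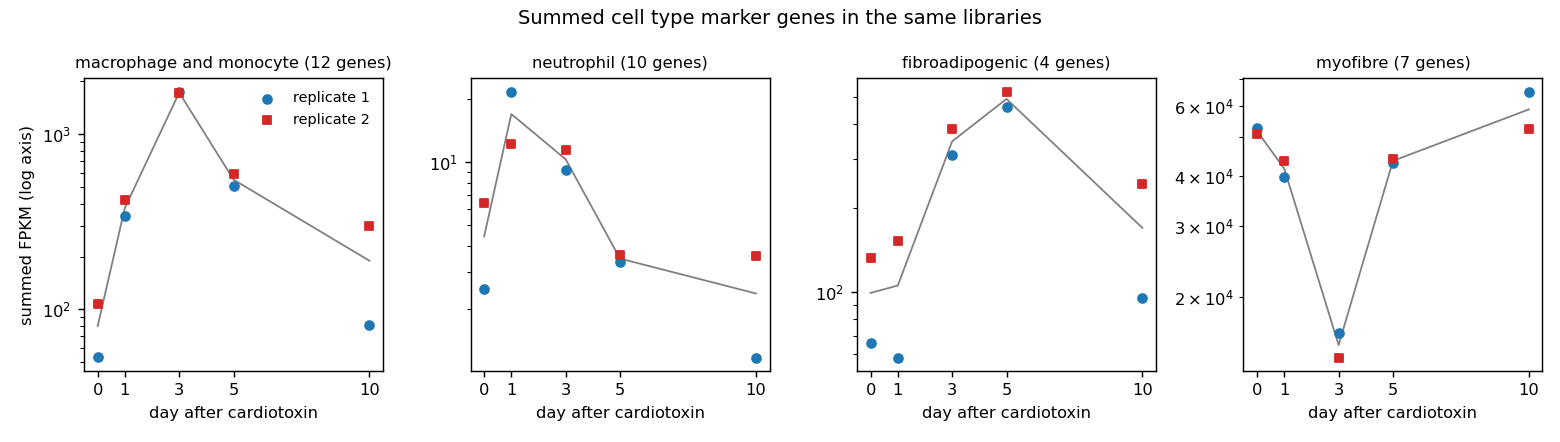
Summed FPKM (log axis) of 4 marker lists in each muscle library by day after cardiotoxin, with blue circles for replicate 1, red squares for replicate 2 and a grey line through the mean of 2. The macrophage and monocyte sum peaks on day 3 at 1707 to 1747 FPKM, while the myofiber sum is lowest there.

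Macrophage and monocyte markers were highest on day 3, as the members were, whereas the neutrophil sum was highest on day 1. The summed level of 12 macrophage and monocyte markers was 53.0 to 107 FPKM on day 0, 340 to 418 on day 1, 1707 to 1747 on day 3, 509 to 591 on day 5 and 80.9 to 297 on day 10, and 12 of 12 rose by day 3 with a median log2 difference of 4.41. The sum of 10 neutrophil markers was 2.48 to 6.39 FPKM on day 0, 12.3 to 21.7 on day 1, 9.19 to 11.5 on day 3, 3.34 to 3.61 on day 5 and 1.17 to 3.57 on day 10. Of the day 3 neutrophil sum, Csf3r made up 5.69 and 6.70 FPKM. The neutrophil markers differed in timing. S100a9 was at 10.0 and 4.23 FPKM on day 1 and at 0.388 and 1.04 on day 3. Csf3r, at 3.44 and 3.10 FPKM on day 1, and Mmp9, at 1.18 and 0.688 on day 1 and 1.55 and 2.77 on day 3, were higher on day 3. Ly6g and Retnlg were listed at 0 in both day 1 libraries. Dendritic cell markers reached 4.93 to 7.62 FPKM on day 3, and those of T, B and NK cells no more than 3.09 FPKM on any day. Fiber markers, in contrast, summed to 50973 to 52779 FPKM on day 0 and 14085 to 16189 on day 3, where 7 of 7 were lower. The part of cell content in the members' changes was not tested.

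The rest of both pathways was read from 8 lists of their other genes, of which 69 were tested. Over these lists 36 of 69 were called higher on day 3 and 12 lower, against 24.5% and 24.3% of all genes, and on day 5 22 were called higher, against 12.9%. Of the other Toll-like receptors, 4 of 6 tested rose by day 3 and 6 of 6 by day 5. Tlr1, a partner of Tlr2, went from 0.114 ± 0.0599 to 4.21 ± 0.0415 FPKM on day 3 (log2 difference 4.36, adjusted p = 3.52e-04), and Tlr9, the endosomal DNA receptor, from 0.0761 ± 0.0750 to 3.07 ± 1.15 FPKM (4.19, adjusted p = 5.88e-04). Tlr5, the flagellin receptor, was called on day 5 (2.85, adjusted p = 0.0240), at 2.35 ± 1.19 FPKM, and not on day 3 (0.96). Among 9 co-receptors and trafficking proteins 6 rose and 2 fell by day 3. Ly86, which encodes MD-1, the partner of the receptor homolog RP105, was at 0.401 ± 0.161 FPKM on day 0 and 12.01 ± 1.05 on day 3 (4.63). Hsp90b1, the chaperone of these receptors, rose from 25.04 ± 0.580 to 61.2 ± 8.36 FPKM (1.28), whereas the fatty acid transporter Cd36 fell from 67.7 ± 0.299 to 19.2 ± 4.33 FPKM (-1.83).

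Downstream of the receptors the lists held calls in both directions. Among 16 adaptors and kinases 5 rose and 3 fell by day 3, near the 24.5% and 24.3% of all genes. Their median log2 difference was -0.09. Ticam2, the bridge from Tlr4 to the TRIF pathway, went from 0.0477 ± 0.0674 to 0.738 ± 0.131 FPKM (2.57). It passed the filter on low values only through its day 3 level, which favors a call on that day. The kinase gene Map3k7 (-0.68) and its binding partner Tab2 (-1.09) fell. Irak1 differed by -0.17 (adjusted p = 0.391). Of 8 transcription factors 4 rose and 0 fell, with Irf7 at 2.40 (adjusted p = 0.0233) and Nfkb2 at 1.42. Of 9 negative regulators tested 3 rose and 2 fell, also near those shares. Nfkbia, the inhibitor that holds NF-κB in the cytoplasm, was highest on day 1 at 29.7 ± 2.06 FPKM against 13.6 ± 1.07 on day 0 (log2 difference 1.12, adjusted p = 0.0269), and was at 17.9 ± 0.223 on day 3 (0.40, not called).

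Among the other inflammasome sensors and their triggers 7 of 9 tested rose and 2 fell by day 3. Of all genes 24.5% were called higher and 24.3% lower on that day, the shares for the day 3 counts below as well. Mefv, which encodes pyrin, went from 0.0587 ± 0.0138 to 3.03 ± 0.217 FPKM (4.30) and the ATP channel P2rx7 rose by 2.76, while Nek7, a kinase that binds Nlrp3, fell from 16.9 ± 3.77 to 6.89 ± 0.283 FPKM (-1.27) and Txnip fell by 1.10. Of 8 effectors 5 rose and 2 fell. Gsdmd, the pore-forming gasdermin D, rose from 3.0 ± 0.408 to 13.3 ± 1.16 FPKM (2.11) and Il18 from 0.192 ± 0.169 to 3.76 ± 0.518 FPKM (3.85). Il1b, named here after its values were seen, was at 2.40 ± 1.99 FPKM on day 1 and 1.87 ± 1.15 on day 3 against 0.506 ± 0.0614 on day 0, with libraries at 0.998 to 3.81 FPKM on day 1 and 1.06 to 2.68 on day 3, and was called on neither day (adjusted p = 0.118 and 0.0664). Of the 4 inflammasome brakes tested 2 rose and 1 fell. Serpinb1a, an inhibitor of neutrophil proteases, was higher on day 1 (3.85, adjusted p = 0.0325) and day 3 (2.85). The median log2 difference on day 3 was 2.82 over the other receptors, 1.39 over co-receptors and trafficking proteins, 0.55 over transcription factors and 0.15 over negative regulators. It was 2.53 over inflammasome sensors, 1.54 over effectors and 0.90 over inflammasome brakes, against 0.01 over all tested genes. On day 10, 0 genes of these 8 lists were called against day 0.

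**Figure D3:**
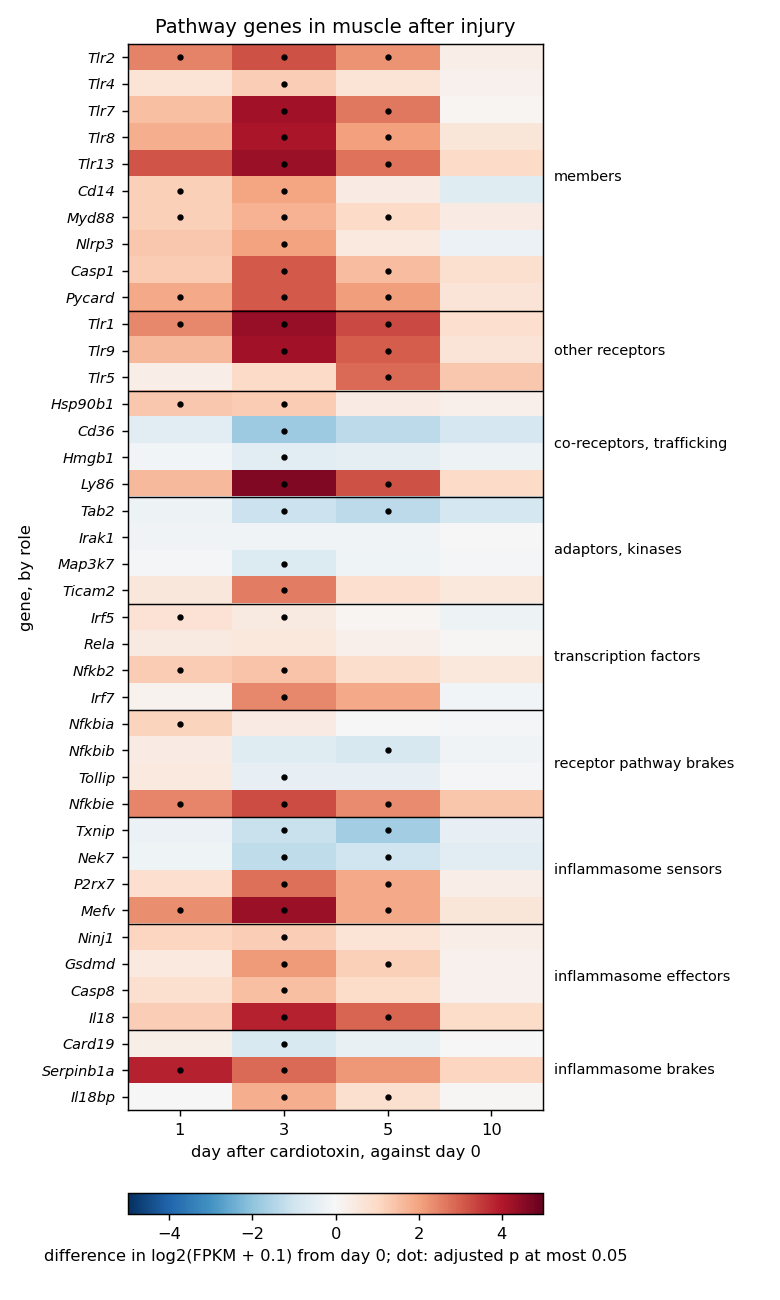
Log2 difference from day 0 (color scale) on days 1, 3, 5 and 10 for the members and the named genes of the 8 pathway lists that passed the filter on low values, with a black dot where the adjusted p was 0.05 or less. The strongest rises are in the day 3 column, and the day 10 column has no gene called against day 0.

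Across the 10 muscle libraries the 45 pairs of members had Pearson correlations of log2 level from 0.743 to 0.979, with a median of 0.890. These points share libraries and the injury itself. Among 14045 genes, the pattern most like Tlr13 was that of Lcp1 (r = 0.994), an actin bundler of leukocytes, followed by the leukocyte surface genes Cd84 (0.992) and Cd53 (0.991). Tlr8 was most like Abcc3 (0.994) and the myeloid kinase Syk (0.991), Tlr2 like Plek (0.990), and Tlr7 like Plxnc1 (0.991). The genes nearest to the others were Csf2rb for Nlrp3 (0.987) and Cd14 (0.986), Cbl for Casp1 (0.991), Tmem8 for Pycard (0.993), Ppia for Myd88 (0.994) and Cenpt for Tlr4 (0.984).

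In C2C12, 5 of the 10 members were above the filter on low values. Tlr2, Tlr4, Cd14, Myd88 and Casp1 were above 0.5 FPKM in every library, whereas the other 5 did not pass the filter. Pycard was listed at 0 in 7 of 8 libraries, with 1 inferred read in the other. Nlrp3 and Tlr13 had 0 to 3 inferred reads and Tlr8 0 to 1. Tlr7 had 25 and 1 inferred reads in control GM, 6 and 2 in control DM3, 86 and 1 in knockdown GM, and 33 and 8 in knockdown DM3, or 0.0133 to 0.668 FPKM, with replicates of a group far apart. Of 12 macrophage and monocyte markers, 4 (Adgre1, C1qa, C1qb and C1qc) were listed at 0 in every C2C12 library, and the list summed to 9.15 to 27.8 FPKM. Other genes of that list were expressed, with Ly6c2 at up to 17.7 FPKM, Mertk 9.52, Lyz2 7.03 and Cd68 6.38. Neutrophil markers summed to 2.24 to 14.9 FPKM, with Camp at up to 9.97 and Mmp8 at up to 8.95. Markers of dendritic cells, of T, B and NK cells and of endothelium each summed to 0.197 FPKM or less. The 2 tables were scaled separately, so levels in cells and in muscle were not tested against each other.

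**Figure D4:**
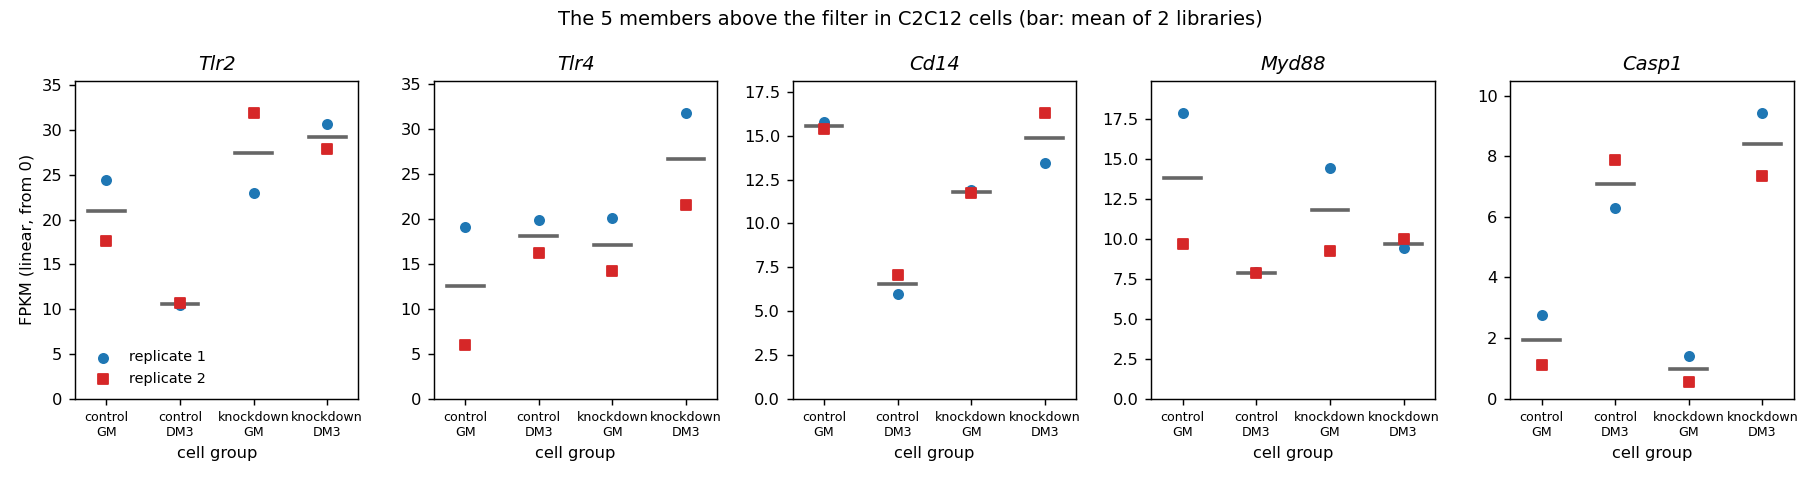
FPKM of the 5 expressed members in each C2C12 library, for control and Mettl3 knockdown cells in growth medium (GM) and on day 3 of differentiation (DM3), with points for the libraries and short lines for the means of 2, on linear axes from 0. Tlr2 and Cd14 are lowest in the control DM3 libraries, and Casp1 is highest in the DM3 libraries of both kinds of cells.

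On DM3, Tlr2 and Cd14 were higher in Mettl3 knockdown cells than in control cells, 2 of the 5 members tested, against 1.29% of the 13824 genes tested. Tlr2 was at 24.4 and 17.6 FPKM in control GM, 10.4 and 10.7 in control DM3, 22.9 and 31.9 in knockdown GM, and 30.7 and 27.8 in knockdown DM3. Cd14 was at 15.8 and 15.4 FPKM in control GM, 5.98 and 7.08 in control DM3, 11.9 and 11.7 in knockdown GM, and 13.4 and 16.3 in knockdown DM3. For both genes the control DM3 pair lay below all 6 other libraries. The log2 difference on DM3 was 1.46 for Tlr2 (SE 0.24, adjusted p = 0.0430) and 1.17 for Cd14 (SE 0.18, adjusted p = 0.0367). These calls held in 12 of 16 alternative settings for Tlr2 and in 10 of 16 for Cd14. The call of either gene was lost when any DM3 library was left out (adjusted p from 0.313 to 0.367 for Tlr2 and from 0.265 to 0.389 for Cd14), with log2 differences of 1.39 to 1.53 and 1.04 to 1.31.

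In GM, 0 of 5 members and 0% of genes were called higher in knockdown than in control cells by limma, and 0 members had an unadjusted p under 0.05. The log2 difference was 0.38 for Tlr2 (95% interval -0.19 to 0.96) and -0.39 for Cd14 (-0.82 to 0.03). The test of the change in the knockdown effect from GM to DM3 called 0 of 5 members and 0% of genes, with 2 members at an unadjusted p under 0.05. It gave 1.57 for Cd14 (95% interval 0.96 to 2.17, unadjusted p = 6.28e-04, adjusted p = 0.266) and 1.08 for Tlr2 (0.26 to 1.90, unadjusted p = 0.0173, adjusted p = 0.442).

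Through differentiation of control cells 1 of 5 members was called lower, against 0.376% of genes: Cd14 fell by 1.25 on the log2 scale (SE 0.18, adjusted p = 0.0399). This call held in 7 of 16 alternative settings, and adjusted p ranged from 0.0229 to 0.425, with losses without the filter on low values, in a fit of the 2 groups alone and when single libraries were left out. Tlr2 differed by -0.97 (adjusted p = 0.123). In knockdown cells 0 of 5 were called by limma, where 0.0145% of genes were called higher, and 1 member, Casp1, had an unadjusted p under 0.05. The knockdown comparison on DM3 and the differentiation of control cells share the control DM3 libraries.

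Casp1 was at 2.75 and 1.12 FPKM in control GM, 6.28 and 7.89 in control DM3, 1.39 and 0.538 in knockdown GM, and 9.44 and 7.36 in knockdown DM3. The DM3 libraries lay above the GM libraries in both kinds of cells. The log2 difference was 1.94 in control cells (adjusted p = 0.155) and 3.11 in knockdown cells (SE 0.53, adjusted p = 0.0915), so that neither was called. Knockdown and control DM3 overlapped for Casp1, with a log2 difference of 0.24 (95% interval -1.05 to 1.53).

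Tlr4 was at 19.1 and 6.0 FPKM in control GM, 19.9 and 16.2 in control DM3, 20.1 and 14.2 in knockdown GM, and 31.8 and 21.5 in knockdown DM3. Myd88 was at 17.9 and 9.69 FPKM in control GM, 7.90 and 7.84 in control DM3, 14.4 and 9.24 in knockdown GM, and 9.40 and 9.99 in knockdown DM3. Neither was called in any of the 5 comparisons. On DM3 the knockdown effect was 0.54 for Tlr4 (95% interval -0.76 to 1.84) and 0.30 for Myd88 (-0.52 to 1.12).

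**Figure D5:**
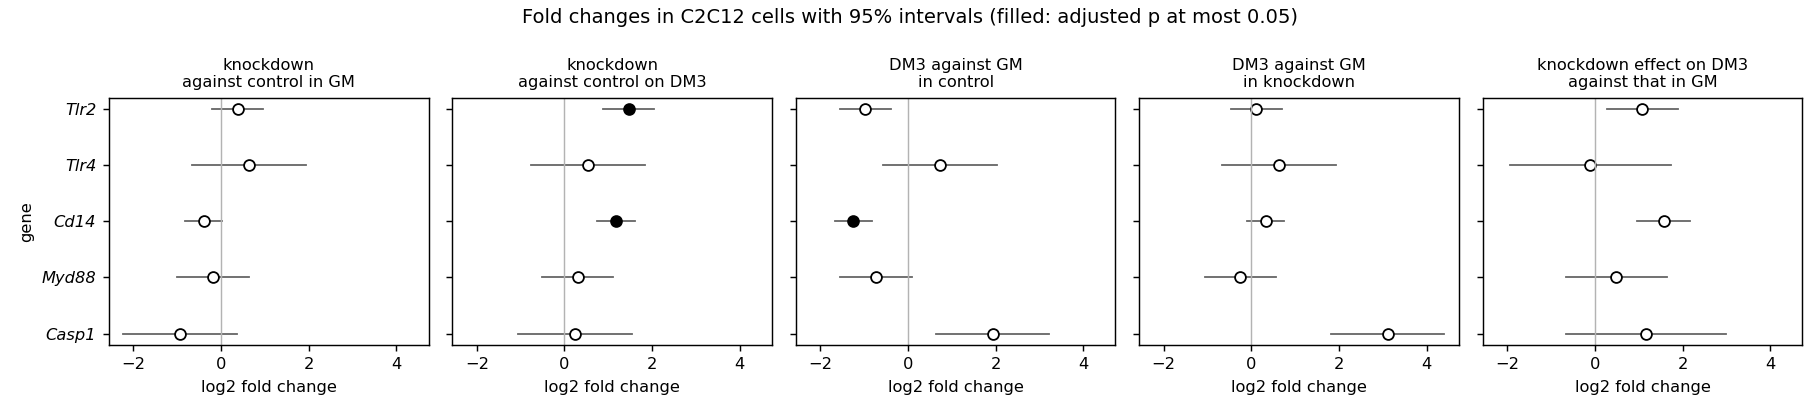
Log2 difference of the 5 expressed members in each C2C12 comparison, with lines for the 95% interval from limma and filled points for called differences. The knockdown effect on DM3 lies above 0 for Tlr2 and Cd14, and the intervals of Tlr4, Casp1 and Myd88 cross 0 there.

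On DM3 the summed muscle markers were lower in knockdown than in control cells, opposite in direction to Tlr2 and Cd14. Myoblast markers summed to 373 to 401 FPKM in control DM3 and 34.6 to 35.9 in knockdown DM3, and fiber markers to 643 to 644 and 14.3 to 18.9 FPKM. Myod1 (-2.80, adjusted p = 0.0337) and Ckm (-5.14, adjusted p = 0.0215) were lower in knockdown cells, as were 0.687% of genes. Mymk (-5.53, adjusted p = 0.0838), Myog (-4.88, adjusted p = 0.197) and Acta1 (-5.41, adjusted p = 0.163) were not called. These directions are opposite to the paper's other assays of knockdown cells. It reports more myosin heavy chain protein and, on day 3 of differentiation, more fusion and higher fusion gene levels by RT-qPCR. The source of this disagreement was not tested. Markers of fibroadipogenic cells, which myoblasts also express in part, summed to 672 to 738 FPKM in control DM3 and 1260 to 1455 in knockdown DM3. In this sum Ly6a was at 244 ± 43.6 FPKM in control and 1011 ± 107 in knockdown cells (2.06, adjusted p = 0.0543). Dcn was also higher in knockdown cells (0.69, adjusted p = 0.130), whereas Col3a1 was lower, at 295 ± 34.7 against 429 ± 89.4 FPKM (-0.53, adjusted p = 0.530). None of them was called. The part of these muscle and fibroadipogenic markers in the Tlr2 and Cd14 differences was not tested.

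Of the 54 genes of the 8 pathway lists tested in C2C12, 1 was called between knockdown and control cells on DM3, near the 1.29% of all genes called higher: Irak3, which restrains Toll-like receptor signaling, was at 1.30 against 0.0741 FPKM (log2 difference 3.02, adjusted p = 0.0473). The RNA receptor Tlr3 was at 4.76 ± 0.481 against 1.67 ± 0.309 FPKM (1.46, adjusted p = 0.0905) and Irf7 at 10.1 ± 1.10 against 0.445 ± 0.0670 FPKM (4.22, adjusted p = 0.0779), and neither was called. The other 4 comparisons called 0 genes of these lists.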

How the data were processed

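RNA was sequenced from 10 muscle and 8 C2C12 libraries. The authors aligned reads with HISAT2 to GRCm38, counted them with featureCounts and deposited FPKM values, made with the fpkm function of DESeq2. The strand setting is not given in the sources used here. Depth was inferred from the step that 1 read makes in low values, with GENCODE M21 exon lengths; 97.2% to 98.0% of low values in muscle and 98.8% to 99.0% in C2C12 were whole within 0.05. One read on 1 kb was worth 0.0494 to 0.0817 FPKM in muscle and 0.0315 to 0.104 FPKM in C2C12, which limits the precision of low genes.

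Genes at 0.5 FPKM or more in at least 2 libraries were kept, and log2(FPKM + 0.1) was fitted over all groups of a table with limma 3.58.1 (R 4.3.3, lmFit and eBayes with trend), with Benjamini-Hochberg adjustment over all tested genes. Summaries used Python 3.11.15, pandas 2.3.3 and numpy 2.4.6. Groups came from the labels. On data simulated for day 3 against day 0 (16753 genes, log2 fold of 4), 183 of 200 changed genes were recovered with 9 false calls, and for knockdown against control on DM3 (13824 genes) 158 of 200 with 14. Members were given in every library, and lists by counts with at most 4 named genes, those of highest mean FPKM and the largest called change on day 3. Genes of like pattern were those of highest Pearson correlation over the muscle libraries among genes with a mean of 1 FPKM or more on their highest day. Members and lists were chosen with earlier results of these data known. Same-numbered C2C12 libraries deviated together (6 of 6 correlations over 0.1, from 0.278 to 0.680, computed from the data, as no label states a pairing), and the replicate block changed no call there. Alternatives were other pseudocounts and filters, quantile normalization, a fit of the compared groups, a Xist term, a replicate block, a fold rule and leaving out each library. Overexpression libraries were not analysed here.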

Additional observations from a re-analysis of the deposited data

How the results depend on the processing

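With 2 libraries per group and few reads for Tlr8 and Nlrp3 on day 0, counts of calls depended on the settings, whereas no called member difference changed sign: of 711 alternative values for the 38 called differences 562 kept the call, 149 lost it and 0 reversed. The rise of Tlr4 by day 3 had adjusted p from 0.0104 to 0.246. On day 1 against day 0 the 4 calls became 0 without the filter on low values, 0 in a fit of the groups compared, 0 with a Xist term and 1 with the fold rule. On day 3 against day 0 the fold rule gave 6. On day 5 against day 0 the count was 4 without the filter and 0 with the Xist term. On day 3 against day 1 it was 6 with a pseudocount of 1, 5 with quantile normalization, 6 in a fit of the groups compared and 0 with the Xist term. On day 5 against day 3 it was 7 with a pseudocount of 1, 1 with 0.01, 1 without the filter, 6 with quantile normalization, 9 in a fit of the groups compared, 0 with the Xist term and 1 with the fold rule. The replicate block gave 4 there; in muscle 2 of 10 same-number correlations were over 0.1 (-0.0187 to 0.211), so the numbers were not taken as pairs, and in C2C12 the block changed no call. For knockdown on DM3 the fold rule gave 0, and for DM3 against GM in control cells no filter, a fit of the 2 groups and the fold rule each gave 0. Quantile normalization moved the median of all genes by -0.12 on day 3 against day 0.

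Leaving out single libraries gave counts of 0 to 6 on day 1 against day 0, 8 to 10 on day 3, 0 to 7 on day 5 and 0 to 0 on day 10, and of 0 to 5 for day 3 against day 1, 0 to 5 for day 5 against day 3 and 8 to 10 for day 10 against day 3. In C2C12 they were 0 to 0 for knockdown in GM, 0 to 2 on DM3, 0 to 3 for differentiation in control cells, 0 to 1 in knockdown cells and 0 to 0 for the change in the knockdown effect. A group left with 1 library was assumed to vary like the others.

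Uncalled differences changed sign as follows. With quantile normalization Nlrp3 on day 5 against day 0 became -0.49 and Tlr7 on day 10 against day 0 -0.14. Leaving out single libraries, the day 10 difference ran from -0.36 to 2.29 for Tlr13, from -0.52 to 0.71 for Tlr7, from -0.46 to 1.15 for Tlr2, from -0.39 to 0.82 for Tlr4, from -0.0071 to 1.29 for Pycard and from -0.79 to 0.23 for Nlrp3, with the negative values (for Nlrp3 the positive one) without day 10 replicate 2 for Tlr13, Tlr7, Tlr2 and Tlr4 (-0.08), without day 0 replicate 1 for Tlr7 (-0.06), Tlr2 (-0.05), Tlr4 and Pycard, and without day 10 replicate 1 for Nlrp3. In C2C12 the knockdown difference in GM ran from -0.18 (without control GM replicate 2) to 1.48 for Tlr4 and from -0.63 to 0.25 for Myd88, positive without control GM replicate 1 and, at 0.13, without knockdown GM replicate 2. The DM3 against GM difference of Tlr4 in control cells ran from -0.092 (without control GM replicate 2) to 1.57, and in knockdown cells that of Tlr2 from -0.13 to 0.35 and that of Myd88 from -0.57 to 0.068, the sign changing without knockdown GM replicate 1. The change in the knockdown effect for Tlr4 ran from -0.93 to 0.72, positive without control GM replicate 2, control DM3 replicate 1 (0.04), knockdown GM replicate 1 (0.14) and knockdown DM3 replicate 2 (0.18). The cause of these changes was not tested.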
